A study of Mus musculus with 6 samples.

Results

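The 33 genes described here carry glucose into the cell, break it down to pyruvate, exchange pyruvate with lactate, and control the entry of pyruvate into mitochondria. They were taken by symbol for their known roles, with no threshold on their values, from the 55573 genes counted: 2 glucose transporters, 3 hexokinases, 3 phosphofructokinases, 4 other genes of upper glycolysis, 7 of lower glycolysis, 4 of lactate production and transport, 4 PFKFB enzymes, 4 pyruvate dehydrogenase kinases and 2 subunits of pyruvate dehydrogenase. RNA was counted in mouse regulatory T cells (Tregs), CD4 T cells that restrain immune responses, in 3 libraries labelled Nfkb2-/- and 3 labelled wild type. Both genotypes were sorted from the spleen of bone marrow chimeras, described in the labels as bi-parental, in which blood cells derive from donor marrow, to a stated purity above 90%, and were rested for 2 h in culture medium before lysis. Nfkb2 encodes the NF-kB protein p100, and its deletion is described without a Cre driver. The labels call the 3 libraries of each genotype biological repeats and give no age, sex or host strain.

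Glycolysis turns glucose into pyruvate in the cytosol. Hexokinase traps glucose, phosphofructokinase commits it, and the PFKFB enzymes set the level of fructose-2,6-bisphosphate, an activator of phosphofructokinase. Lactate dehydrogenase exchanges pyruvate and lactate, the monocarboxylate transporters move lactate across the membrane, and the pyruvate dehydrogenase kinases (PDKs) switch off pyruvate dehydrogenase, which makes acetyl-CoA from pyruvate. Several of these genes are known targets of hypoxia-inducible factors, and T cells generally raise glycolysis on activation.

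The promoter windows of 4 members are printed because these genes show the contrasts in the data. Hk2 and Eno2 differed most between the genotypes relative to their error, Pgam1 was separated without overlap, and Ldha is the member with the highest level per kilobase. The sequences are from RefSeq on GRCm38.p6, 5′ to 3′ on the strand of the gene, each 300 bases around a start site. Capitals mark ACGTG or its reverse complement CACGT, the core letters to which hypoxia-inducible factors are known to bind.

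Hk2, chr6:82774405-82774704, minus strand: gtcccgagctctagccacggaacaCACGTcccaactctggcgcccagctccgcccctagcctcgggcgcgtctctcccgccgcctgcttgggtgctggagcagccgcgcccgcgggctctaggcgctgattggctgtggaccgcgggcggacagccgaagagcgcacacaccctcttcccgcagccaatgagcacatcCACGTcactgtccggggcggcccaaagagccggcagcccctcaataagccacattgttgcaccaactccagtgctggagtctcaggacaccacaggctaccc

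Eno2, chr6:124769624-124769923, minus strand: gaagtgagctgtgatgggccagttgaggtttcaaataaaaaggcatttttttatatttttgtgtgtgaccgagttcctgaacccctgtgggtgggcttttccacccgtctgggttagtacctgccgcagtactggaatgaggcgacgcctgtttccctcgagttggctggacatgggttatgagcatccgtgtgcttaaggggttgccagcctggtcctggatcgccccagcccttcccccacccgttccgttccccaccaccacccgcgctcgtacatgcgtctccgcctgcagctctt

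Pgam1, chr19:41911621-41911920, plus strand: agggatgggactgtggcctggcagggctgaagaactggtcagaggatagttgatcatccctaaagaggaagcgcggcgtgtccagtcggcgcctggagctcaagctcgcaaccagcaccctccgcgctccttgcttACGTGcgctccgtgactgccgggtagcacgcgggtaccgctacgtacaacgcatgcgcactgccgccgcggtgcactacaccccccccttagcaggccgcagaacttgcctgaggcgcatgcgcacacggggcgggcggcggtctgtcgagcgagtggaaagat

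Ldha, chr7:46845554-46845853, plus strand: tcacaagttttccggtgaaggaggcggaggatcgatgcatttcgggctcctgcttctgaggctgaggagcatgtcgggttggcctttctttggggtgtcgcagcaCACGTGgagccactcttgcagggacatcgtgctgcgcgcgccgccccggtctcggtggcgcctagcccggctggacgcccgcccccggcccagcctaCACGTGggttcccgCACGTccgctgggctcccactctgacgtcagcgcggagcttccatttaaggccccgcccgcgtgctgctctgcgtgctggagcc

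The Hk2 window held these letters at positions -226 and -52 from the start site and the Pgam1 window at -114, while the Eno2 window held none. The Ldha window had 5 matches, at -145, -144, -48, -47 and -34. They are not 5 separate stretches, as each of its 2 CACGTG palindromes matches once on each strand. Of 32 members with a window in the table, taking the start site nearest to the annotated gene start, 15 (46.9%) held ACGTG on either strand, against 19.6% of 32851 windows of all genes. The longer palindrome CACGTG, which contains ACGTG, stood in 4 member windows (12.5%) and in 7.15% of all. The kappaB consensus was found on either strand in 4 member windows (12.5%), those of Hk1, Pdha1, Pfkfb2 and Pgk1, and in 8.46% of all. Each member entered with a single window, but all genes with every window in the table, expressed or not. The shares thus rest on unlike sets and cannot show an excess. Such matches describe letters and are not binding sites.

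Library totals ran from 12005273 to 17278521 counts. Nfkb2, which checks the genotype labels, was at 268 to 324 CPM (counts scaled to library size by TMM, per 1e+06) in the Nfkb2-/- libraries and at 545 to 558 CPM in wild type (log2 fold change -0.94, edgeR adjusted p = 0.0203), so that RNA counted as Nfkb2 was lower but still present. Of 7 Treg and T cell markers 0 were called. The Treg transcription factor Foxp3 was at 407 to 622 CPM and the T cell receptor chain Cd3e at 174 to 262 CPM. Without overlap, Ikzf2 was higher in Nfkb2-/- (722 to 823 against 436 to 539 CPM) and Il2ra lower (410 to 496 against 525 to 635 CPM). Their log2 fold changes were 0.65 and -0.38 (edgeR adjusted p = 0.0875 and 0.305). Of all genes tested, 10.7% were higher without overlap and 9.90% lower. Other measures moved with the genotype. Xist, the RNA that silences an X chromosome in female cells, was at 592 to 883 CPM in Nfkb2-/- and 1.94 to 16.5 CPM in wild type. The sums of 4 Y-linked genes were 40.1, 138 and 275 CPM in Nfkb2-/- replicates 1 to 3 and 465 to 498 CPM in wild type. Xist and Y-linked RNA thus stood together in each Nfkb2-/- library. All 10 B cell markers were detected, with sums of 29.9, 39.4 and 52.4 CPM in Nfkb2-/- replicates 1 to 3 and 80.8 to 262 CPM in wild type. Of the 10, 2 passed the test, lower in Nfkb2-/-. Nfkb2-/- replicate 1 was thus the lowest library for both the Y-linked and the B cell sum. Marker sums of CD8 and NK cells (22.1 to 41.7 CPM), myeloid cells (14.8 to 47.1), neutrophils (4.28 to 61.3), red cells (22.4 to 59.7) and platelets (2.61 to 6.36) overlapped between genotypes. Among the CD8 and NK cell markers 1 was called, Eomes, at 15.0 to 21.8 CPM in Nfkb2-/- and 4.26 to 7.60 CPM in wild type (edgeR adjusted p = 0.0364), while Cd8a and Cd8b1 had log2 fold changes of -0.95 and -0.48 (edgeR adjusted p = 0.529 and 0.359). The fits with these levels in the model are given beside the results, and their part in the results was not tested otherwise. Wild-type replicate 1 stood apart: it held the highest level of 34.2% and the lowest of 31.5% of the 13347 genes tested.

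No member passed the test between genotypes, and the excess of their median in Nfkb2-/- was not seen without 2 of the libraries. Of the 33 members 32 passed the count filter, and Pdk4, a PDK known from fasting muscle, had 0 counts in every library. Members past the threshold (edgeR's quasi-likelihood F test with p adjusted over all genes tested by the Benjamini-Hochberg method, 0.05) numbered 0 in either direction, where 1.42% of all genes were called. At an unadjusted p under 0.05 there were 3 members, all with higher values in Nfkb2-/-, or 9.38% of the 32, against 13.6% of all genes. The levels of the genotypes did not overlap for 5 members, each higher in Nfkb2-/- (15.6%, against 10.7% of all genes), and for 0 in the other direction (9.90% of all genes). A positive log2 fold change, meaning more in Nfkb2-/-, was seen in 24 of 32 members (75.0%, against 45.0% of all genes), and the median was 0.17 against -0.03 over all genes.

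The members were highest in Nfkb2-/- replicate 1 and lowest in wild-type replicate 1. Nfkb2-/- replicate 1 held the highest level of 17 members (53.1%, against 8.58% of all genes tested), and wild-type replicate 1 the lowest level of 22 (68.8%, against 31.5%). Summed over the 33 genes, the CPM values were 5318, 3777 and 3868 for Nfkb2-/- and 2735, 3907 and 4168 for wild type, in the order of replicates 1 to 3. Replicates 2 and 3 of the genotypes were close, with the wild-type sums slightly above the Nfkb2-/- sums. In bulk RNA, fewer cells of a kind and less RNA per cell cannot be told apart. Without Nfkb2-/- replicate 1 the median log2 fold change was 0.08, with 17 of 32 positive (46.0% of all genes), and without wild-type replicate 1 it was 0.00, with 16 positive (49.7% of all genes). Without both libraries, a fit added after seeing the data, it was -0.12, with 8 of 32 positive (49.2% of all genes).

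**Figure D1:**
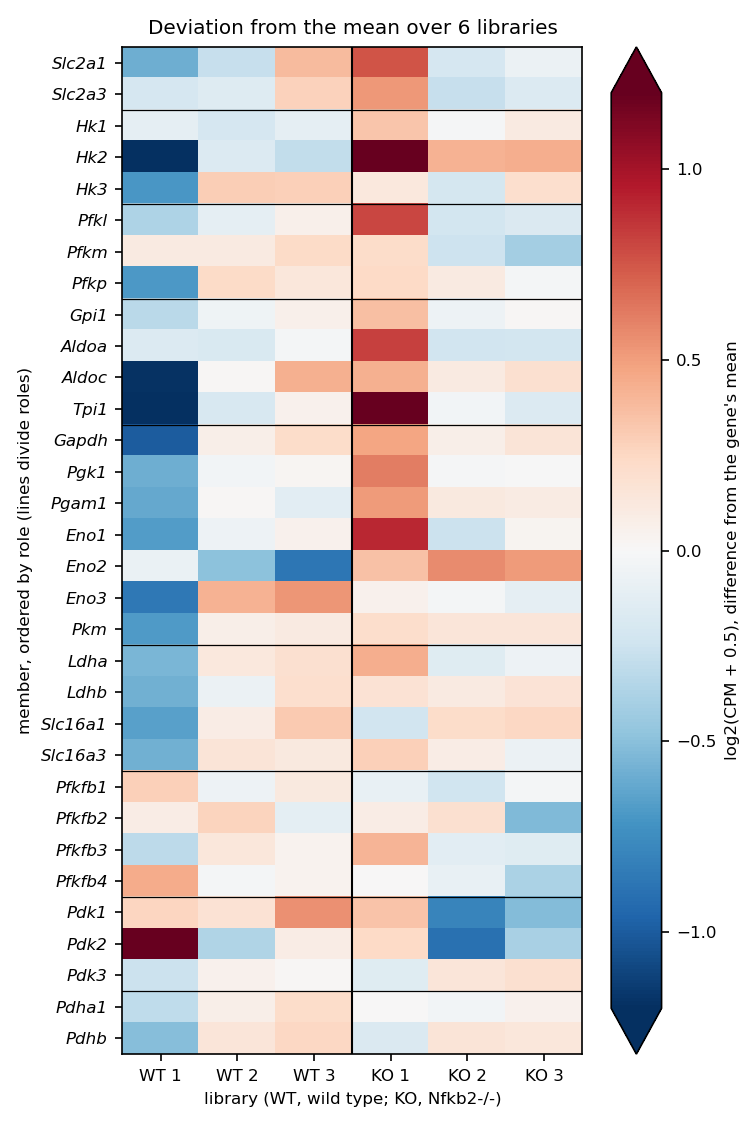
Deviation of each of 32 tested members (rows, divided by role) from its mean over the 6 libraries (columns), in log2(CPM + 0.5), red above and blue below, with the darkest shades also for values beyond the scale. Nfkb2-/- replicate 1 is red and wild-type replicate 1 blue in most rows. Among the exceptions Pfkfb1, Pfkfb4 and Pdk2 are highest in wild-type replicate 1 and Eno2 in Nfkb2-/- replicate 2.

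Both glucose uptake genes were highest in Nfkb2-/- replicate 1. Slc2a1 was lowest in wild-type replicate 1, but Slc2a3 was lowest in Nfkb2-/- replicate 2. Slc2a1, the basal glucose transporter GLUT1, was at 119, 61.2 and 66.9 CPM in Nfkb2-/- and at 46.9, 58.2 and 91.8 CPM in wild type, each in the order of replicates 1 to 3 as in all that follows. The groups overlapped widely, with Nfkb2-/- replicate 1 highest. Slc2a3, the high-affinity transporter GLUT3, was at 114, 65.1 and 70.7 CPM and at 68.8, 71.3 and 96.1 CPM. Their log2 fold changes of 0.33 and 0.08 (edgeR adjusted p = 0.735 and 0.925) became -0.22 and -0.30 without both replicate 1 libraries.

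Hk2, the inducible hexokinase that docks on mitochondria, had the highest fold change of the 32 members. It was at 63.9, 36.0 and 36.6 CPM in Nfkb2-/- (772, 512 and 450 counts) and at 8.36, 23.9 and 21.8 CPM in wild type (155, 302 and 260 counts). Every Nfkb2-/- library lay above every wild-type library, and replicate 1 was the extreme on both sides. The genotype means were 45.5 ± 15.9 and 18.0 ± 8.44 CPM (SD, n = 3 each). The fitted fold was 2.54, or 1.34 on the log2 scale with an SE of 0.402 (edgeR adjusted p = 0.181). Without each library in turn the log2 fold change ran from 0.99 to 1.59. Without both replicate 1 libraries it was smaller, 0.67, and passed the test (edgeR adjusted p = 0.00551), in a fit that called 11.2% of all genes. Adding the Y-linked sum to the model gave 0.69 (edgeR adjusted p = 0.846), and adding the B cell sum gave 2.51 (edgeR adjusted p = 0.1).

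The main hexokinase of these cells by level, Hk1, the housekeeping form, differed little. It was at 193, 152 and 164 CPM in Nfkb2-/- and at 141, 133 and 141 CPM in wild type, without overlap. The log2 fold change was 0.29 (SE 0.126, edgeR adjusted p = 0.370). Hk3, the form of myeloid cells, was at 1.41 to 2.04 and 0.863 to 2.22 CPM, with 16 to 28 counts per library, where a small difference is not detectable.

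**Figure D2:**
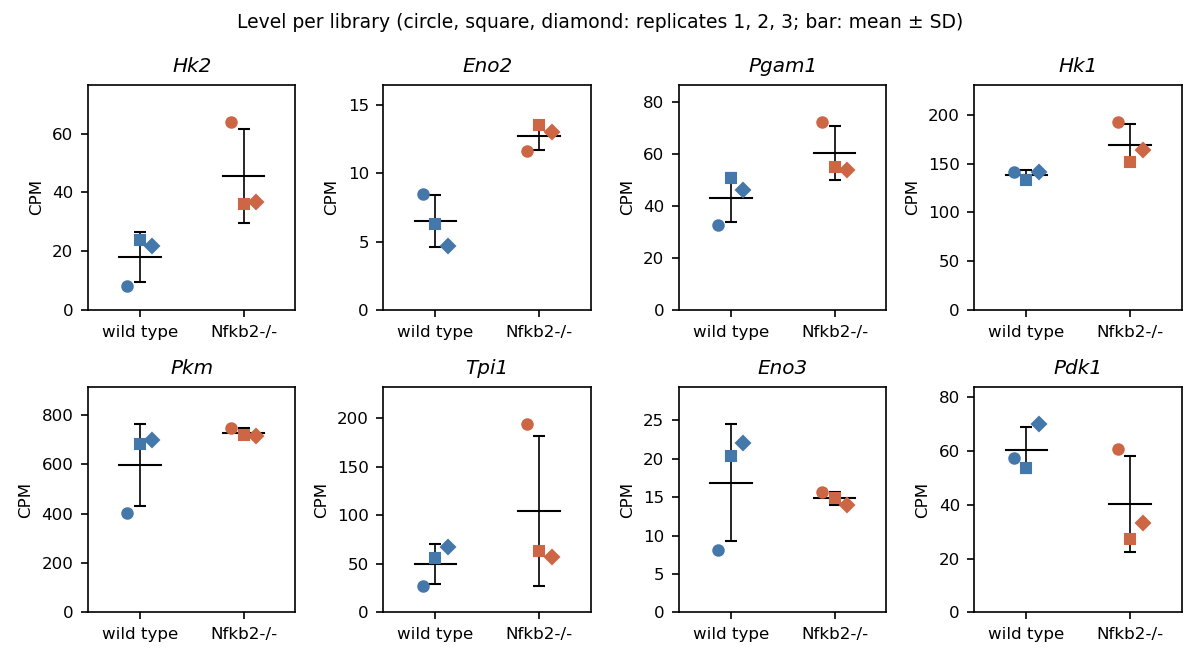
Level of 8 members in each library, in CPM from 0, with the mean and SD of the 3 libraries of each genotype. Hk2, Eno2, Pgam1, Hk1 and Pkm do not overlap between genotypes, Tpi1 is high only in Nfkb2-/- replicate 1, and the genotypes do not overlap for Eno3 and Pdk1 once a replicate 1 library is set aside.

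Among the phosphofructokinases no genotype difference held in every library. Pfkl, the liver-type subunit, was at 199.7, 98.1 and 101 CPM in Nfkb2-/- and at 88.4, 106 and 119 CPM in wild type, so that a single Nfkb2-/- library was high, at 2.00 times the mean of the other two. Pfkp, the platelet-type subunit, was at 275 to 329.9 and 173 to 328 CPM, with wild-type replicate 1 lowest. Pfkm, the muscle-type subunit, was at 6.03 to 9.60 and 8.84 to 9.66 CPM. Log2 fold changes were 0.35, 0.17 and -0.29 (edgeR adjusted p = 0.672, 0.828 and 0.669).

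Tpi1, in upper glycolysis, had the highest excess of that Nfkb2-/- library among the tested members. This gene of triosephosphate isomerase was at 194, 63.0 and 57.5 CPM in Nfkb2-/- and at 26.9, 56.4 and 66.9 CPM in wild type. Replicate 1 was 3.21 times the mean of the other Nfkb2-/- libraries, and wild-type replicate 1 was 43.6% of the mean of its own. The Tpi1 log2 fold change was 1.07 with an SE of 0.516 (edgeR adjusted p = 0.425), and -0.03 without both. Aldoa, the main aldolase, was at 549, 265 and 268 CPM and at 278, 274 and 306 CPM, again with 1 high library. Gpi1, glucose-6-phosphate isomerase, was at 434, 324 and 342 CPM and at 270, 325 and 352 CPM. Aldoc, the aldolase of brain, was at 5.35 to 6.78 and 1.89 to 6.80 CPM. Their log2 fold changes were 0.33, 0.22 and 0.40 in the order named (edgeR adjusted p from 0.656 to 0.766), and -0.12, -0.02 and -0.09 without both replicate 1 libraries.

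In lower glycolysis Eno2, the neuron-type enolase, was separated by genotype and did not follow the replicate 1 libraries. It was at 11.6, 13.5 and 13.0 CPM in Nfkb2-/- (140, 192 and 160 counts) and at 8.47, 6.25 and 4.70 CPM in wild type (157, 79 and 56 counts). Here wild-type replicate 1 was the highest wild-type library and Nfkb2-/- replicate 1 the lowest of its group. Means were 12.7 ± 1.00 and 6.47 ± 1.89 CPM (SD, n = 3 each). The Eno2 log2 fold change was 0.96, with an SE of 0.246 (edgeR adjusted p = 0.121). DESeq2 called Eno2 and Hk2 higher (adjusted p = 0.0122 and 0.0242), and these were its only member calls, 6.25% of 32 against 5.09% of all genes. The Eno2 value in edgeR was 1.28 without both replicate 1 libraries (edgeR adjusted p = 0.00237), 1.09 with the Y-linked sum in the model and 0.50 with the B cell sum (edgeR adjusted p = 0.687 and 0.383).

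Eno3, the muscle-type enolase, ran the other way in 2 of the 3 wild-type libraries. It was at 15.7, 14.9 and 14.0 CPM in Nfkb2-/- and at 8.14, 20.3 and 22.1 CPM in wild type, so that wild-type replicate 1 lay below and its other libraries above all Nfkb2-/- libraries. The log2 fold change was -0.17 (edgeR adjusted p = 0.883), or -0.51 without wild-type replicate 1 (adjusted p = 0.0452). Eno1, the common enolase, was at 519, 231 and 284 CPM and at 174, 267 and 288 CPM (log2 fold change 0.51, edgeR adjusted p = 0.572). Without wild-type replicate 1 Eno2 was called higher and Eno3 lower, where 9.04% of all genes were called. Without both replicate 1 libraries Hk2 and Eno2 were called higher and Eno3 and Pdk1 lower, 12.5% of the 32 members against 11.2% of all genes.

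Pgam1, phosphoglycerate mutase, was at 72.3, 55.0 and 54.1 CPM in Nfkb2-/- and at 32.8, 50.9 and 46.2 CPM in wild type. The groups did not touch, though the gap between 54.1 and 50.9 CPM was small beside the range within each. Its log2 fold change was 0.48 (SE 0.199, edgeR adjusted p = 0.346) and 0.17 without both replicate 1 libraries. Pgam1 lies on chromosome 19 at 41911923 to 41918660 (GRCm38), 4386 kb from Nfkb2. Pkm, pyruvate kinase, the last step of glycolysis, was at 748, 718 and 715 CPM and at 404, 682 and 699.7 CPM. The Nfkb2-/- libraries lay within a narrow band just above wild-type replicates 2 and 3 (log2 fold change 0.29, edgeR adjusted p = 0.647, and 0.06 without both). Counts per gene do not separate the M1 and M2 splice forms of Pkm.

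Gapdh, which oxidises glyceraldehyde-3-phosphate, and Pgk1, the first step that yields ATP, overlapped between genotypes. Gapdh was at 195, 148 and 156 CPM in Nfkb2-/- and at 70.1, 147 and 163 CPM in wild type. Pgk1 was at 225, 146 and 146 CPM and at 97.6, 143 and 149.6 CPM. In both genes replicates 2 and 3 were alike in the 2 genotypes, and the log2 fold changes of 0.39 and 0.41 were -0.03 and -0.0027 without both replicate 1 libraries.

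Lactate genes overlapped as well. Ldha, whose enzyme favours lactate formation, was at 640, 426 and 451 CPM in Nfkb2-/- and at 323, 514 and 538 CPM in wild type. Ldhb, the heart-type subunit, was at 33.8 to 35.3 CPM and at 20.8 to 36.2 CPM. Slc16a1, the transporter MCT1, was at 68.5, 93.8 and 95.6 CPM and at 51.0, 85.8 and 100.3 CPM, and was a gene in which Nfkb2-/- replicate 1 was the lowest of its genotype. Slc16a3, the lactate exporter MCT4, was at 149 to 190 and 104 to 174 CPM. Log2 fold changes were 0.14, 0.27, 0.12 and 0.17 (edgeR adjusted p from 0.651 to 0.887).

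Of the PFKFB genes 3 had negative log2 fold changes and 1 a positive one, all within the spread of the libraries. Pfkfb3, the form that most favours synthesis of fructose-2,6-bisphosphate, was at 70.5, 48.7 and 47.9 CPM in Nfkb2-/- and at 42.5, 58.3 and 54.6 CPM in wild type. Pfkfb4, another inducible form, was at 8.36, 7.81 and 6.27 CPM and at 11.5, 8.15 and 8.57 CPM. Pfkfb1 and Pfkfb2, the forms of liver and heart, lay between 3.31 and 4.96 and between 4.23 and 7.75 CPM. Log2 fold changes were -0.27, -0.15, 0.10 and -0.34 for Pfkfb1 to Pfkfb4 (edgeR adjusted p from 0.597 to 0.878).

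Of the kinases that inhibit pyruvate dehydrogenase, Pdk1 was lower in 2 Nfkb2-/- libraries. Pdk1, a kinase induced in hypoxia, was at 60.8, 27.4 and 33.1 CPM in Nfkb2-/- and at 57.3, 53.9 and 70.0 CPM in wild type. Replicate 1 lay within the wild-type range, while replicates 2 and 3 lay below it. Mean levels were 40.5 ± 17.9 and 60.4 ± 8.48 CPM (SD, n = 3 each). The Pdk1 log2 fold change was -0.58, with an SE of 0.288 (edgeR adjusted p = 0.443). It was -0.998 without Nfkb2-/- replicate 1 (edgeR adjusted p = 0.129). Without both replicate 1 libraries it was -1.03 and passed the test (edgeR adjusted p = 0.00161), in a fit that called 11.2% of all genes.

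Pdk2, the broadly expressed kinase, was at 9.85, 4.22 and 6.19 CPM in Nfkb2-/- and at 21.3, 6.33 and 8.82 CPM in wild type, with wild-type replicate 1 at 281% of the mean of the other two (log2 fold change -0.86, edgeR adjusted p = 0.527, and -0.17 without that library). Pdk3, the kinase encoded on the X chromosome, was at 29.9 to 37.9 and 27.6 to 34.5 CPM (log2 fold change 0.13). Pdha1 and Pdhb, the subunits of the E1 enzyme these kinases act on, were at 103 to 108.5 and 84.8 to 122 CPM, and at 89.9 to 113.5 and 71.1 to 121 CPM. Their log2 fold changes were -0.0025 and 0.05 (edgeR adjusted p = 0.997 and 0.949).

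**Figure D3:**
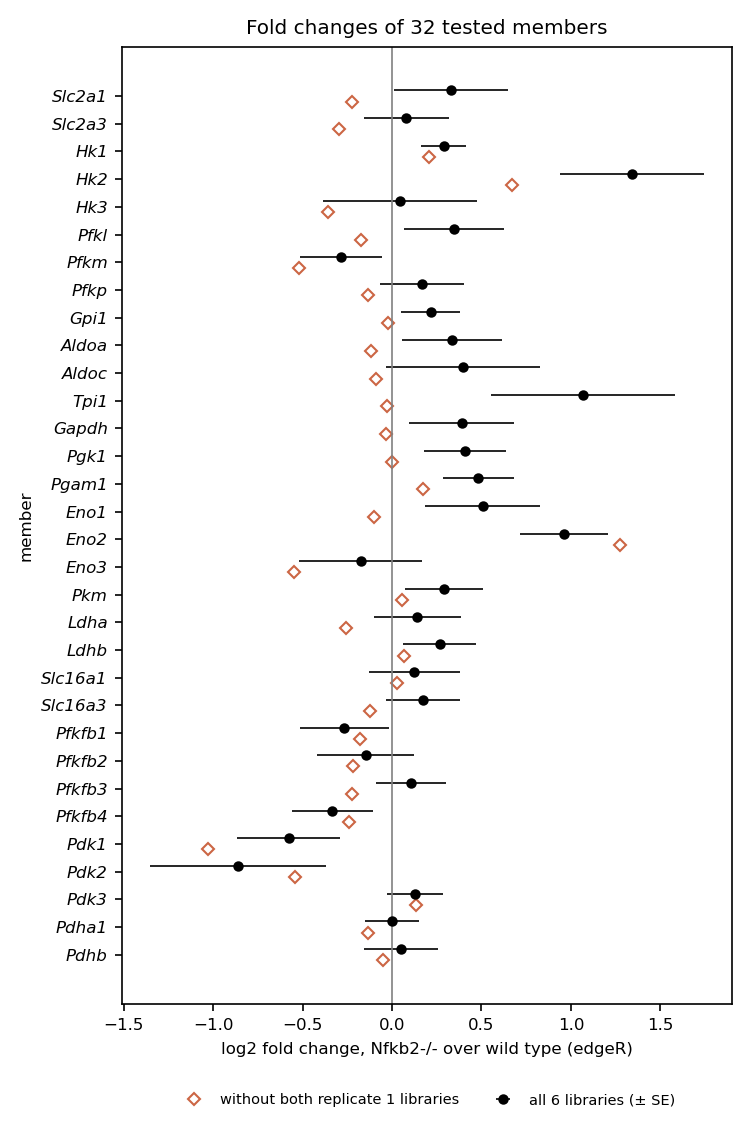
Log2 fold changes from edgeR (Nfkb2-/- over wild type) of the 32 tested members with all 6 libraries (black, with SE) and without both replicate 1 libraries (open diamonds). Most diamonds lie left of the black points and near 0, while Hk2 and Eno2 stay to the right and Pdk1 lies at -1.03.

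Levels per kilobase of exon sequence, which allow genes to be compared, gave the relative RNA levels of the isozymes. Ldha was at 146 CPM per kb over the 6 libraries, Pkm at 132, Aldoa at 111 and Pgk1 at 67.4. Hk1 was at 18.1 CPM per kb against 5.32 for Hk2 and 0.480 for Hk3, and the E1 subunits Pdha1 and Pdhb were almost equal at 28.3 and 26.7 CPM per kb. Hk2 made up 31.7%, 25.0% and 23.7% of the summed hexokinase level in Nfkb2-/- and 7.69%, 19.8% and 17.6% in wild type. The shares did not overlap, with means of 26.8 ± 4.30% and 15.0 ± 6.44% (SD, n = 3 each). The exact two-sided permutation test gave p = 0.1, the smallest that 3 against 3 libraries allow. The difference of 11.8 percentage points was 7.80 by the longest transcript, 8.09 to 14.1 without 1 library and 5.64 without both replicate 1 libraries (exact p = 0.333, the smallest for 2 against 2).

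Other isozyme shares were less distinct. Of 24 shares in 9 families, those of Hk1 (71.5 ± 4.08% and 82.6 ± 7.37%, SD, n = 3 each) and Pfkm (5.00 ± 0.197% and 7.33 ± 1.63%) were the others without overlap, both lower in Nfkb2-/-, each at the same smallest exact p. The Hk1 share largely mirrors that of Hk2, as Hk3 made up at most 2.97% of the hexokinases. By level, 10.7% of all genes tested were without overlap and higher in Nfkb2-/-, and 9.90% without overlap and lower. Pdk3 was the leading PDK, at 51.7%, 74.7% and 70.4% of the family in Nfkb2-/- and 43.3%, 60.1% and 52.7% in wild type, while Pdk1 was at 34.5%, 18.4% and 20.3% and at 29.6%, 30.9% and 36.1%. The genotypes overlapped in both (exact p = 0.3). Aldoa made up 98.06% to 99.4% of the aldolases, Ldha 85.7% to 89.6% of the lactate dehydrogenases, and Slc2a1 58.5% to 68.4% of both glucose transporters.

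**Figure D4:**
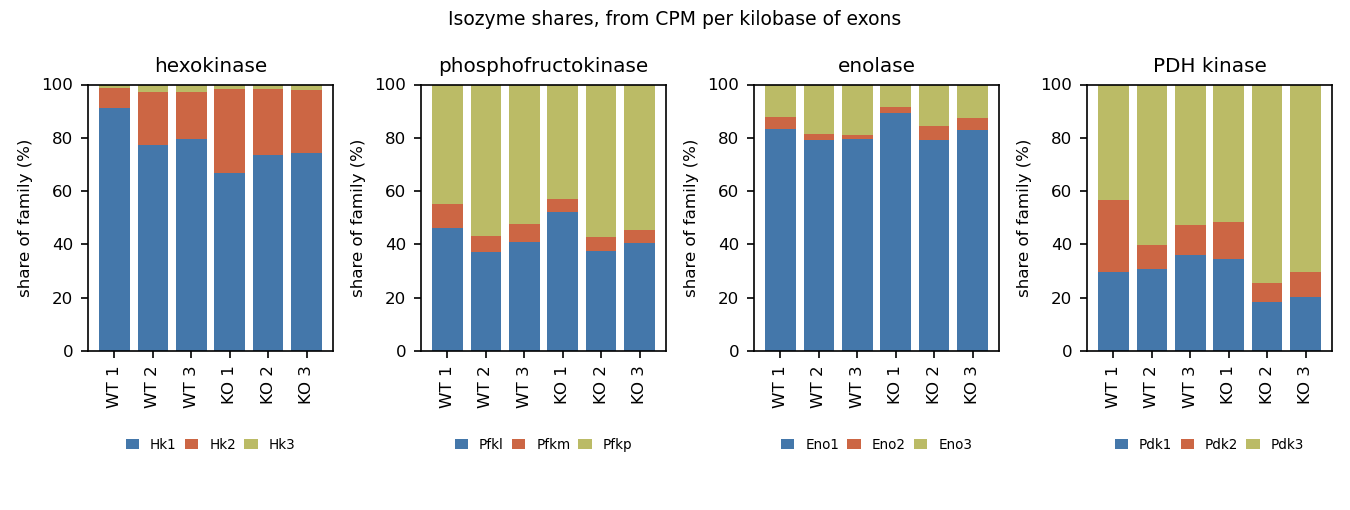
Share of each isozyme in its family, in percent of the summed CPM per kilobase, in each library (WT, wild type; KO, Nfkb2-/-). The Hk2 part is 23.7% to 31.7% in Nfkb2-/- and 7.69% to 19.8% in wild type, and the Pdk3 part is largest in Nfkb2-/- replicates 2 and 3.

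Some members could not be counted cleanly. Of all stretches of 50 bases in the principal transcript, 82.5% also stood in a transcript of another gene for Gapdh, 72.2% for Eno1, 68.0% for Pgk1, 41.5% for Pgam1 and 34.4% for Pkm, but 0.00% for Hk1, Hk2, Pdk1, Pdk2 and Eno3 and 0.255% for Eno2. Gapdh was at 35.5 CPM per kb, against 67.4 for Pgk1, by union exon lengths of 4133 and 2244 bases. Their principal transcripts have 1420 and 1825 bases, so the level per kilobase depends on the length chosen. In all, 89 genes share at least 100 such stretches with Gapdh and hold 4148 counts, against 11475 for Gapdh. The part of length or of shared sequence in the Gapdh level was not tested. The sources used here do not say how reads with several matches were treated. The libraries are unstranded, so reads from exons shared with a gene on the other strand cannot be told apart. Among others, exons of Pfkp, Pdha1, Pfkfb1 and Pfkfb2 overlap those of Pitrm1, Map3k15, Apex2 and Yod1 in this way. Pkm overlaps Gm49759 on its own strand, and Pfkfb2 overlaps Gm29427, which held 0 counts, over 1262 bases of exon on its own strand. Aldoa was read from the gene identifier with the longer gene model, and a further identifier with the same symbol held 5 counts.

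In the neighbouring pathways 5 of 126 tested genes were called (3.97%, against 1.42% of all genes), all higher in Nfkb2-/-. These lists were chosen with earlier results of these data known, so such shares cannot show an enrichment. Of 9 other genes of pyruvate entry and the pyruvate dehydrogenase complex, 1 rose and 0 fell. The called gene was Pdp1, the phosphatase that switches pyruvate dehydrogenase back on and so opposes the PDKs. Pdp1 was at 46.0, 46.9 and 55.0 CPM in Nfkb2-/- and at 26.5, 30.2 and 30.8 CPM in wild type. Its log2 fold change was 0.76, with an SE of 0.139 (edgeR adjusted p = 0.0477). Each Nfkb2-/- library lay well above each wild-type library, and the log2 fold change without both replicate 1 libraries was 0.74. The list's median was 0.00. The mitochondrial pyruvate carrier genes Mpc1 and Mpc2 were at 0.14 and -0.16.

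Of 12 glycogen and hexosamine genes tested 1 rose and 0 fell, namely Uap1, which makes UDP-N-acetylglucosamine, with 111, 128 and 155 CPM against 46.6, 62.0 and 68.6 CPM (log2 fold change 1.15, edgeR adjusted p = 0.0315). Of 15 other isozymes and companions of glycolysis 0 were called. Their smallest p-values were those of Adpgk, an ADP-dependent glucokinase, and Txnip, which restrains glucose uptake, with log2 fold changes of -0.47 and -0.97 (edgeR adjusted p = 0.108 and 0.233). Without both replicate 1 libraries these were -0.53 and -0.91, and both passed the edgeR test (adjusted p = 0.00995 and 0.000735). In that fit, chosen after seeing the data, 11.2% of all genes were called. No gene was called among 7 pentose phosphate genes, with a median log2 fold change of -0.01 and the smallest p-values for Rpia (0.26) and Taldo1 (-0.17). None of 16 citrate cycle genes was called either (median 0.09), where Dlst, a subunit of oxoglutarate dehydrogenase, had 0.30 and Sdhb, a subunit of succinate dehydrogenase, had 0.32 (edgeR adjusted p = 0.272 and 0.345). The same held for 8 genes of amino acid transport and mTORC1 activity (median 0.10), with Odc1, which starts polyamine synthesis, at 0.60 and Slc3a2, an amino acid transporter chain, at 0.36. It also held for 22 cell cycle genes (median 0.07), with Mcm7 at -0.18 and Plk1 at -0.51. Without both replicate 1 libraries Odc1 had 0.68 and passed the test (edgeR adjusted p = 0.0218), again in the fit that called 11.2% of all genes.

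Among 22 tested regulators of glycolysis genes, 1 rose and 0 fell. Epas1, a hypoxia-inducible factor, rose from 98.7, 58.9 and 58.8 CPM in wild type to 183, 144 and 206 CPM (log2 fold change 1.30, edgeR adjusted p = 0.0478). Hif1a, the factor best known for driving glycolysis genes, had a log2 fold change of 0.17, and Myc one of -0.23 (edgeR adjusted p = 0.664 and 0.778). Of 17 tested hypoxia-induced genes outside glycolysis 2 rose and 0 fell (11.8%, against 1.42% of all genes), with a median of 0.51. They were Bhlhe40, a transcriptional repressor (log2 fold change 1.88, edgeR adjusted p = 0.00807), and Anxa2, a membrane-binding annexin (1.10, adjusted p = 0.0479). The share of this list has the same limit, as it too was chosen with earlier results known. Without 1 library, Bhlhe40 was called in 3 of 6 fits, each without a wild-type library, and Anxa2, Pdp1, Uap1 and Epas1 were called in 1 each, that without wild-type replicate 1. Over all genes 15, 7 and 12 were called without Nfkb2-/- replicate 1, 2 and 3.

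The hypoxia-induced genes had their extremes in the same libraries as the members. Nfkb2-/- replicate 1 held the highest level of 10 of the 17 and wild-type replicate 1 the lowest of 13. Their median deviation from the mean over libraries, in log2(CPM + 0.5), was 0.44 in Nfkb2-/- replicate 1 and -0.52 in wild-type replicate 1, where the members had 0.34 and -0.53. Within Nfkb2-/-, the level in replicate 1 was above the mean of replicates 2 and 3 for 11 of the 17 and below it for 6, with ratios of 0.698 (Ndrg1) to 4.09 (Bnip3, a mitophagy receptor) and a median of 1.19. For the members it was above for 27 of 32, with a median ratio of 1.26. The called genes Bhlhe40 and Anxa2 had ratios of 0.909 and 1.02. The list's median log2 fold change was 0.00 without both replicate 1 libraries. The low in wild-type replicate 1 was not particular to these lists: it held the lowest level of 13 of 16 citrate cycle genes, 7 of 8 genes of amino acid transport and mTORC1 activity and 14 of 22 cell cycle genes. The high in Nfkb2-/- replicate 1 was not seen there, as it held the highest level of 0, 0 and 1 of them. The 7 Treg and T cell markers also had their lowest sum, 3221 CPM, in wild-type replicate 1, against 4054 to 4986 CPM in the other libraries. That library held the lowest level of 3 of the 7 (42.9%, against 31.5% of all genes). Ctla4 was at 798 CPM in it and at 1386 to 2394 CPM in the others, while Foxp3 was highest in it, at 622 CPM. The part of these marker levels in the members' order was not tested.

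**Figure D5:**
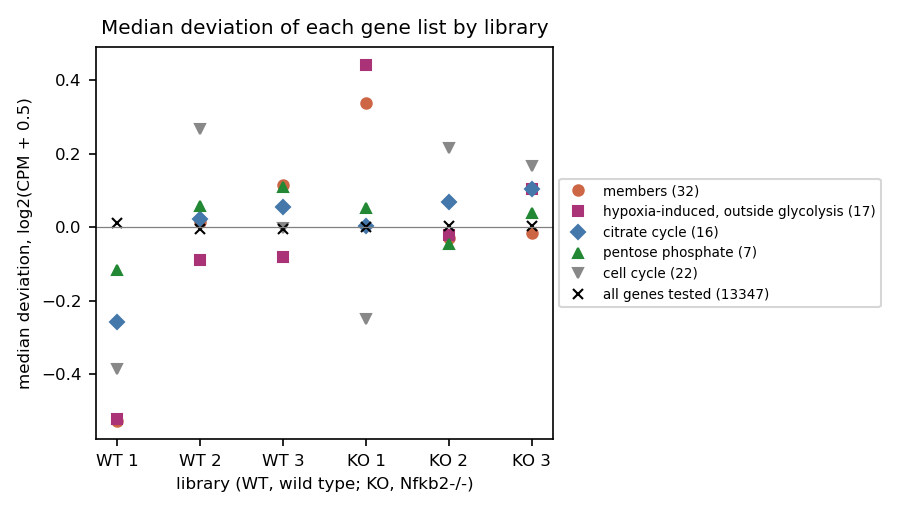
Median deviation of the tested genes of 6 lists from their means, in log2(CPM + 0.5), by library, with the number of genes in brackets. The members and the hypoxia-induced genes are lowest in wild-type replicate 1 and highest in Nfkb2-/- replicate 1, at 0.34 and 0.44, while all genes tested stay near 0.

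With the B cell sum in the model 3 members were called higher (Pkm, Slc16a1 and Pdhb) and 1 lower (Pdk2), 12.5% of the 32, against 21.6% of all genes. None of these was called by DESeq2 or without both replicate 1 libraries.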

How the data were processed

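RNA of sorted splenic Tregs was sequenced in 6 libraries, 3 Nfkb2-/- and 3 wild type, which the labels' protocols describe as unstranded TruSeq libraries. The authors deposited whole-number counts per Ensembl gene. The submitters' processing notes list the build GRCm38 and the tools HISAT2, HTSeq, FastQC and DESeq2, without counting options. Symbols came from GENCODE M21 for 55394 of the 55573 genes.

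Counts were tested with edgeR 4.0.16 (R 4.3.3). The filter filterByExpr, by genotype, left 13347 genes, TMM factors were 0.9543 to 1.076, and a robust quasi-likelihood fit was followed by Benjamini-Hochberg adjustment at 0.05. The common biological coefficient of variation was 0.228, and p-values measure the spread between 3 libraries per genotype. In counts simulated for this comparison, of which 13070 of 13347 genes were tested, a 2-fold change was called in 23 of 50 genes, a 1.5-fold change in 3 of 49 and a 4-fold change in 43 of 49. These counts were drawn independently for each gene, with no library that stood apart. The shares called may therefore not hold for the real libraries. Isozyme shares used CPM per kilobase of union exon length and exact permutation tests.

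Other settings tried were scaling by RLE or upper quartile, DESeq2 1.42.0, voom in limma 3.58.1, a filter at 1 CPM in at least 3 libraries or none, the replicate block, Y-linked and B cell covariates, other gene lengths, and leaving out each library. Leaving out both replicate 1 libraries was chosen after seeing the data. Deviations of same-numbered libraries from their group means correlated over genes (0.364, 0.267 and 0.111). Between unequal numbers the correlations were -0.428 to 0.251. The top value, of Nfkb2-/- 3 and wild-type 2, exceeded the 0.111 of the number 3 libraries, so a pairing was not established. Equal numbers were paired only in the replicate block fit, and the main test was unpaired.

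Members and lists were chosen with earlier results of these data known. Values per library were to be given for members at an unadjusted p under 0.05, without overlap or of the same enzyme families, and from each pathway list the called genes (at most 4) or else the 2 with the smallest p were to be named. Mpc1, Mpc2, Hif1a, Myc, Bnip3, Ndrg1, and the values per library of Gapdh, Pgk1, Gpi1 and Tpi1, were added after their values were seen.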

Additional observations from a re-analysis of the deposited data

How the results depend on the processing

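Of 135 genes called higher and 54 called lower over the whole table, the counts were 292 and 174 with no count filter, 428 and 252 by DESeq2, and 6 and 1 with the Y-linked covariate. They were 1299 and 1585 with the B cell marker covariate and 780 and 724 without both replicate 1 libraries. Leaving out 1 library gave 6 to 628 higher and 1 to 606 lower, the upper ends without wild-type replicate 1, and the lower ends without an Nfkb2-/- library. Members called were 2 higher by DESeq2, 3 higher and 1 lower with the B cell covariate, 2 higher and 2 lower without both replicate 1 libraries, and 0 to 1 in each direction without 1 library. With the replicate block, which pairs equal numbers, 196 genes were higher and 93 lower, 164 of them among the 189 main calls, 0 members were called, and Pdha1 was at 0.0128. The member median of 0.17 was -0.0905 with the Y-linked covariate, 0.62 with the B cell covariate, and -0.12 without both replicate 1 libraries. It was 0.00 to 0.29 without 1 library. Of the isozyme shares, the Pfkp difference of 0.28 percentage points was -0.10 by the longest transcript, -0.38 with no length correction and -3.01 to 4.68 without 1 library, that of Slc16a3 was -3.43 to 3.23 without 1 library and -2.64 without both replicate 1 libraries, and that of Aldoc was -0.20 to 0.47 without 1 library. Log2 fold changes that turned sign were, by limma-voom, Eno3 0.0144 and Pdha1 0.0134. With the Y-linked covariate they were Slc2a1 -0.39, Slc2a3 -0.51, Pfkl -0.49, Pfkp -0.0043, Gpi1 -0.068, Aldoa -0.56, Tpi1 -0.50, Pgk1 -0.11, Eno1 -0.26, Ldha -0.27, Slc16a3 -0.0755, Pfkfb3 -0.34 and Pdha1 0.0297. With the B cell covariate they were Slc2a3 -0.0946, Aldoa -0.19, Eno3 1.26 and Pdha1 0.46. Without both replicate 1 libraries they were Slc2a1 -0.22, Slc2a3 -0.30, Hk3 -0.36, Pfkl -0.17, Pfkp -0.13, Gpi1 -0.0219, Aldoa -0.12, Aldoc -0.0894, Tpi1 -0.0287, Gapdh -0.032, Pgk1 -0.0027, Eno1 -0.10, Ldha -0.26, Slc16a3 -0.12, Pfkfb3 -0.22 and Pdhb -0.05. Ranges without 1 library that crossed 0 were Slc2a1 -0.0346 to 0.65, Slc2a3 -0.21 to 0.25, Hk3 -0.31 to 0.25, Pfkl -0.0695 to 0.53, Pfkp -0.0692 to 0.32, Aldoa -0.10 to 0.52, Ldha -0.0642 to 0.27, Eno3 -0.51 to 0.0659, Slc16a1 -0.11 to 0.33, Slc16a3 -0.0286 to 0.29, Pfkfb2 -0.30 to 0.0557, Pfkfb3 -0.10 to 0.20, Pdha1 -0.14 to 0.11 and Pdhb -0.15 to 0.19. Hk1, Hk2, Pgam1, Eno2, Pkm, Ldhb and Pdk3 were positive under each of these alternatives. Pfkm, Pfkfb1, Pfkfb4, Pdk1 and Pdk2 were negative under each. The cause of these shifts was not tested. Depth limits Hk3, at 16 to 28 counts per library, more than the other tested members. Genotype moves with Y-linked and B cell RNA, so the fits with these covariates separate them poorly.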
